A study of Homo sapiens with 8 samples.

Results

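The HSP70 family and heat shock factor were examined as 10 genes (HSPA8, HSPA1A, HSPA1B, HSPA4, HSPA9, HSPA13, HSPA14, HSPH1, HSF1 and BAG3) among the 60332 rows of the expression matrix. They were chosen around HSPA8, which was selected on its measured opposite changes after LOXHD1 enhancer knockdown in 2 Ewing sarcoma (EwS) cell lines. The question was whether these changes extend to its relatives and to genes induced by heat shock. All 10 symbols were found, with 1 row each, and all 10 passed the filter for testing, a mean FPKM of 1 or more over the libraries, which left 15175 genes. FPKM is a number of fragments normalized to transcript length and library size, so levels can be set side by side between genes.

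The RNA came from the EwS cell lines RD-ES and SK-N-MC, with 2 control and 2 eKD2 libraries per line (8 libraries in 4 groups). In eKD2 cells dCas9-KRAB, a Cas9 that does not cut and carries the KRAB repressor domain, was guided to a site next to the GGAA repeat at the enhancer of LOXHD1. Control cells of both lines were infected with the empty dCas9-KRAB lentivirus according to the sample labels, and the study describes its controls as parental cells. The labels give all groups a multiplicity of infection of 10, puromycin at 1 µg/ml for 3 days, and at most 5 passages afterwards. The cells of a group are a pool from a single line, not a clone. LOXHD1 was at 21.4 and 21.2 FPKM in RD-ES control and at 1.04 and 1.02 in RD-ES eKD2, and at 159 and 169 FPKM in SK-N-MC control and 11.0 and 11.95 in SK-N-MC eKD2. Its log2 fold change was -3.46 (standard error 0.078, limma adjusted p = 1.1e-04) in RD-ES and -3.73 (standard error 0.078, limma adjusted p = 3.7e-05) in SK-N-MC. The libraries therefore matched their control and eKD2 labels, whereas the label of the cell line was not checked by this. All 8 markers of EwS cells examined passed the filter on low values, which is a mean over both lines. Their levels differed between the lines, as for NR0B1, between 2.38 and 3.84 FPKM in RD-ES and 51.0 and 59.55 in SK-N-MC. In control cells 5 of the 8 were higher and 2 lower in SK-N-MC at an adjusted p under 0.05 (limma), against 31.4% and 26.4% of all genes tested. Among 8 markers of other cell types, PTPRC, a blood cell phosphatase, was at most 0.0173 FPKM in RD-ES but between 19.2 and 22.6 FPKM in SK-N-MC. EPCAM, an epithelial surface protein, was between 2.96 and 4.54 FPKM in SK-N-MC and below 1 FPKM in RD-ES. CD3E and KRT5 were at 0 throughout, MYOD1 was at most 0.079 FPKM, CDH1 was at 3.50 FPKM in RD-ES eKD2 replicate 1 and at most 0.168 elsewhere, and PECAM1 was not analysed here. Neither PTPRC nor EPCAM differed between eKD2 and control past the threshold (limma). The correlation of replicates over genes, which share libraries and are not independent, was r = 0.937 to 0.945. By the size of the smallest steps in the values, a rough guide, RD-ES eKD2 replicate 1 was the shallowest library, at 0.249 of the depth of SK-N-MC control replicate 1, the deepest.

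HSP70 proteins are ATP-driven chaperones that bind exposed stretches of unfolded proteins, help them fold, and pass on those that cannot be folded. J-domain proteins load them with clients, and nucleotide exchange factors reset them. HSF1 is the transcription factor that is released from chaperones under heat and other protein damage. It binds heat shock elements, which are repeats of GAA and its reverse complement TTC, in promoters of chaperone genes. HSPA8 is the constitutive cytosolic HSP70, whereas HSPA1A and HSPA1B are the strongly inducible ones. Tumor cells often depend on this system because they carry a high load of unfolded protein.

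The bases before the start site of HSPA8, HSPA1A and HSPA1B are shown because these genes are the constitutive and inducible cytosolic members and hold heat shock element letters there. The sequences are the 250 bases before the annotated start in RefSeq on GRCh38.p14, whereas the positions of genes below are on GRCh37, the build of the expression values. Capitals mark matches to the longer motif TTCNNGAANNTTC or its reverse complement GAANNTTCNNGAA in HSPA8, and to the shorter motif GAANNTTC in HSPA1A and HSPA1B.
HSPA8, minus strand, chr11:123062137-123062386: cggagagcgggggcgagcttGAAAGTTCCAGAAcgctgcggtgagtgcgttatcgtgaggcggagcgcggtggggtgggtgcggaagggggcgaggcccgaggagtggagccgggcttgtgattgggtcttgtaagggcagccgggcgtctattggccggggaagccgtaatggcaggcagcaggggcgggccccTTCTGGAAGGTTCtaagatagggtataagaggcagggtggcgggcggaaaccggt
HSPA1A, plus strand, chr6:31815293-31815542: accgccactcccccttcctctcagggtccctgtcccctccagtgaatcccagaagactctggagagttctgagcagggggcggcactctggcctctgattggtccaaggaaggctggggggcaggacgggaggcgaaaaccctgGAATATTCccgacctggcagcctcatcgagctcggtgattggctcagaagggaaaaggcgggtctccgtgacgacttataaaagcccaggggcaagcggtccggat
HSPA1B, plus strand, chr6:31827488-31827737: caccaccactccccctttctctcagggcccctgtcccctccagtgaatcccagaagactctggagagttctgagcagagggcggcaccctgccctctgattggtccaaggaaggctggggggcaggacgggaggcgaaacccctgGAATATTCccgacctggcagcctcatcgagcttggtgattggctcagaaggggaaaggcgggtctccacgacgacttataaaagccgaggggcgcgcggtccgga
The upstream sequence of HSPA8 holds 2 matches to the longer motif, GAAAGTTCCAGAA from 230 to 218 bases and TTCTGGAAGGTTC from 55 to 43 bases before the start. Either form of the longer motif, read on both strands, occurs in 155 of 35116 promoters of this length (0.441%). HSPA1A and HSPA1B each hold 1 match to the shorter motif, GAATATTC, about 100 bases before the start. The shorter motif, as GAANNTTC or TTCNNGAA, is part of the longer one and occurs in 4067 of the 35116 promoters (11.6%). HSPA4, HSPA9, HSPA13, HSPH1 and BAG3 hold neither motif in this window. The upstream sequences of HSPA1A and HSPA1B have the same base at 235 of 249 aligned positions (94.4%). A match to these letters is a description and says nothing about binding.

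HSPA8 (ENSG00000109971.13_4, chr11:122928197-122933938 on GRCh37) was the most abundant member in 3 of the 4 groups. Its level was 2897 and 2895 FPKM in RD-ES control and 1822 and 1938 FPKM in RD-ES eKD2. In SK-N-MC it was 716 and 647 FPKM in the controls against 1294 and 1384 after eKD2. In every library of RD-ES eKD2 it was therefore below both controls, and in every library of SK-N-MC eKD2 above both controls. The means were 2896 ± 1.11 and 1880 ± 82.6 FPKM in RD-ES (SD, n = 2 each), a difference of -35.1% with eKD2. In SK-N-MC they were 681 ± 48.8 and 1339 ± 63.7 FPKM (SD, n = 2 each), a difference of 96.6% with eKD2. On the log2(FPKM + 1) scale the change was -0.62 (standard error 0.066) in RD-ES and 0.97 (standard error 0.066) in SK-N-MC, and the difference between the lines was 1.60 (standard error 0.093). These are the values by which the gene was selected, and they are given without a test.

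The opposite changes brought the HSPA8 levels of the lines closer together. RD-ES had 4.25 times the HSPA8 level of SK-N-MC in control cells and 1.40 times in eKD2 cells. Among all 60332 rows HSPA8 ranked 13 in both RD-ES control libraries and 32 in both RD-ES eKD2 libraries. In SK-N-MC it ranked 125 and 137 in control and 63 and 66 in eKD2. HSPA8 alone held 0.379% and 0.366% of the summed FPKM in RD-ES control and 0.245% and 0.252% in RD-ES eKD2. The shares were 0.0990% and 0.0857% in SK-N-MC control and 0.178% and 0.182% in SK-N-MC eKD2. In bulk RNA, a change in the RNA of each cell and a change in the makeup of the pool cannot be told apart.

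Reads of HSPA8 can match its processed pseudogenes, so their rows were read too. The matrix holds 18 rows of pseudogenes of members, 17 of them named after HSPA8, and 5 of the 18 were at 0 in every library. No pseudogene row was above 1.14 FPKM, and the highest means were those of HSPA8P15 (0.644 FPKM) and HSPA8P3 (0.216 FPKM). Summed in each library, the HSPA8 pseudogenes came to at most 0.189% of HSPA8. The HSPA8 introns hold 3 small nucleolar RNA genes, of which SNORD14E was listed at 291 FPKM in SK-N-MC control replicate 2, the library with the lowest HSPA8, and the rest were at 0. Whether this library or its RNA differed in another way was not tested.

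**Figure D1:**
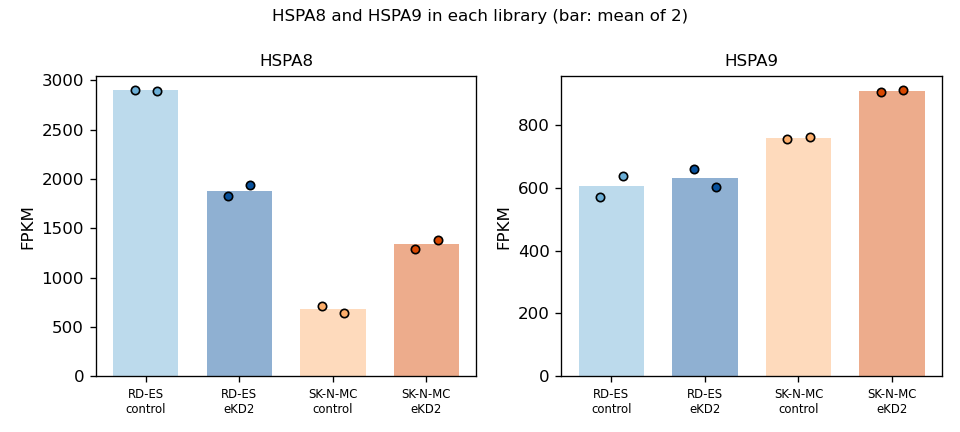
FPKM of HSPA8 (left) and HSPA9 (right) in each of the 8 libraries, with points for libraries and bars for the mean of 2. HSPA8 lay at 2895 and 2897 FPKM in RD-ES control and between 1822 and 1938 in RD-ES eKD2, but between 647 and 716 in SK-N-MC control and 1294 and 1384 in SK-N-MC eKD2, whereas HSPA9 was between 570 and 909 FPKM throughout.

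HSPA1A (chr6:31783241-31785723) and HSPA1B (chr6:31795512-31798032) encode the inducible cytosolic HSP70 and lie beside each other in the major histocompatibility complex. HSPA1A was at 10.3 and 9.97 FPKM in the RD-ES controls against 6.31 and 7.41 after eKD2, and 10.7 and 11.97 FPKM in the SK-N-MC controls against 9.05 and 9.15 after eKD2. HSPA1B was at 6.98 and 7.98 FPKM in the RD-ES controls against 5.04 and 5.90 after eKD2, and 9.99 and 9.52 FPKM in the SK-N-MC controls against 9.43 and 9.13 after eKD2. Both genes were thus below both controls in both eKD2 libraries of both lines, so in SK-N-MC they lay on the side opposite to HSPA8. The mean of HSPA1A differed by -32.5% with eKD2 in RD-ES and by -19.7% with eKD2 in SK-N-MC, with log2 fold changes of -0.51 and -0.29 (standard error 0.105 each). For HSPA1B the mean differed by -26.9% and by -4.85%, with log2 fold changes of -0.39 and -0.065 (standard error 0.109 each).

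The split of reads between HSPA1A and HSPA1B is uncertain. Of the windows of 75 bases in annotated HSPA1A transcripts, 71.6% also occur in HSPA1B transcripts, and 70.2% of the HSPA1B windows occur in HSPA1A. Against this, 0.728% of the HSPA8 windows occur in annotated transcripts of HSPA8 pseudogenes. The sum of both inducible genes, which depends less on the split, was 17.6 ± 0.449 FPKM in the RD-ES controls against 12.3 ± 1.39 after eKD2 (SD, n = 2 each). It was 21.1 ± 0.562 FPKM in the SK-N-MC controls against 18.4 ± 0.147 after eKD2 (SD, n = 2 each). The sum was lower in eKD2 in both lines without overlap of the libraries. At these levels the inducible genes were among the lowest of the members in every group, and far below HSPA8.

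HSPA9 (chr5:137890571-137911133) encodes mortalin, the HSP70 of the mitochondrial matrix. It was at 570 and 638 FPKM in RD-ES control and 660 and 603 FPKM in RD-ES eKD2, which overlap. In SK-N-MC it was at 755 and 762 FPKM in the controls against 905 and 909 after eKD2, so both eKD2 libraries lay above both controls. The means were 604 ± 48.0 and 631 ± 40.6 FPKM in RD-ES and 758 ± 5.06 and 907 ± 2.82 FPKM in SK-N-MC (SD, n = 2 each), which is 4.57% and 19.6% higher in eKD2. The log2 fold changes were 0.065 for RD-ES against 0.26 for SK-N-MC (standard error 0.071 each). In SK-N-MC control HSPA9 (755 and 762 FPKM) was above HSPA8 (716 and 647 FPKM). The ratio of HSPA8 to HSPA9 was 5.08 and 4.54 in the RD-ES controls against 2.76 and 3.22 after eKD2, and 0.949 and 0.849 in the SK-N-MC controls against 1.43 and 1.52 after eKD2.

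Over the 14 HSPA genes of the lists together, HSPA8 made up most of the difference between groups. The summed level was 4072 and 4086 FPKM in the RD-ES controls against 3073 and 3087 after eKD2, and 1828 and 1749 FPKM in the SK-N-MC controls against 2579 and 2632 after eKD2. Without HSPA8 the sum was 1175 and 1191 FPKM in the RD-ES controls against 1252 and 1148 after eKD2, which overlap. In SK-N-MC it was 1112 and 1102 FPKM in the controls against 1285 and 1247 after eKD2, without overlap. The share of HSPA8 in the sum was 71.2% and 70.9% in the RD-ES controls against 59.3% and 62.8% after eKD2, and 39.2% and 37.0% in the SK-N-MC controls against 50.2% and 52.6% after eKD2.

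**Figure D2:**
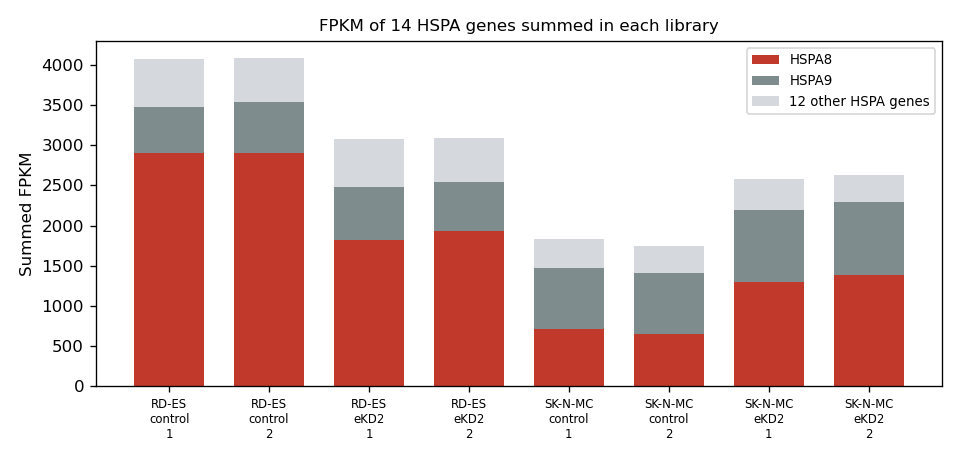
Summed FPKM of 14 HSPA genes in each library, stacked as HSPA8, HSPA9 and the 12 other genes. The HSPA8 segment carries most of the difference in height between 1749 and 4086 FPKM. The segments without it add up to between 1102 and 1285 FPKM, and in SK-N-MC they are higher after eKD2 than in the controls.

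HSPA4 and HSPH1 belong to the HSP110 branch, whose proteins act as nucleotide exchange factors of HSP70. HSPA4 (chr5:132387654-132442141) was at 308 and 263 FPKM in the RD-ES controls against 305 and 277 after eKD2, and 207 and 196 FPKM in the SK-N-MC controls against 225 and 190 after eKD2. Control and eKD2 libraries of HSPA4 overlapped in both lines, with log2 fold changes of 0.030 for RD-ES against 0.039 for SK-N-MC (standard error 0.115 each). HSPH1 (chr13:31709111-31736525) was at 209 and 177 FPKM in RD-ES control and 156 and 144 FPKM in RD-ES eKD2, without overlap. In SK-N-MC it was at 113 and 105 FPKM in the controls against 108 and 102 after eKD2, with overlap. The HSPH1 means differed by -22.3% in RD-ES (log2 fold change -0.36) and by -3.68% in SK-N-MC (log2 fold change -0.053, standard error 0.098 each). The exchange factors therefore shared the lower level of HSPA8 in RD-ES eKD2 only in the case of HSPH1, and neither was separated in SK-N-MC.

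HSPA13 and HSPA14 are distant relatives, the former a microsomal protein and the latter a partner of a J-domain protein at the ribosome. HSPA13 (chr21:15743436-15755805) was at 21.6 and 20.7 FPKM in the RD-ES controls against 27.6 and 23.2 after eKD2, and 21.4 and 18.9 FPKM in the SK-N-MC controls against 23.6 and 21.6 after eKD2. It was above both controls in both eKD2 libraries of both lines, with log2 fold changes of 0.25 and 0.16 (standard error 0.113 each). HSPA14 (chr10:14861249-14913740) was at 27.8 and 26.2 FPKM in the RD-ES controls against 27.5 and 24.5 after eKD2, and 13.9 and 13.5 FPKM in the SK-N-MC controls against 12.4 and 10.9 after eKD2. Its libraries overlapped in RD-ES, and both eKD2 libraries were below both controls in SK-N-MC, with log2 fold changes of -0.056 and -0.22 (standard error 0.098 each). The HSPA14 locus also holds CDNF and AC069544.2, at most 11.0 FPKM, and a kit that does not mark strand cannot tell reads of overlapping genes apart.

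HSF1 (chr8:145515273-145550573), the heat shock transcription factor, was at 66.5 and 74.3 FPKM in RD-ES control and 59.9 and 68.5 FPKM in RD-ES eKD2. In SK-N-MC it was at 93.7 and 97.3 FPKM in the controls against 98.3 and 119 after eKD2. Control and eKD2 overlapped in the former line but not in the latter, with log2 fold changes of -0.13 and 0.18 (standard error 0.119 each). HSF1 was the other member beside HSPA8 with a lower mean in RD-ES eKD2 and a higher mean in SK-N-MC eKD2, although its RD-ES libraries overlapped. The level of HSF1 mRNA does not measure its activity, which depends on the state of the protein. Its locus overlaps DGAT1 and AC233992.1, of which the higher reached 37.3 FPKM.

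BAG3 (chr10:121410882-121437331), an exchange factor and adaptor that sends HSP70 clients to autophagy and is itself a heat shock target, was at 15.7 and 18.9 FPKM in RD-ES control and 13.4 and 16.2 FPKM in RD-ES eKD2, which overlap. In SK-N-MC it was at 6.88 and 7.39 FPKM in the controls against 6.33 and 6.75 after eKD2, which do not. The log2 fold changes were -0.21 and -0.11 (standard error 0.130 each), so the BAG3 means were lower in eKD2 in both lines.

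**Figure D3:**
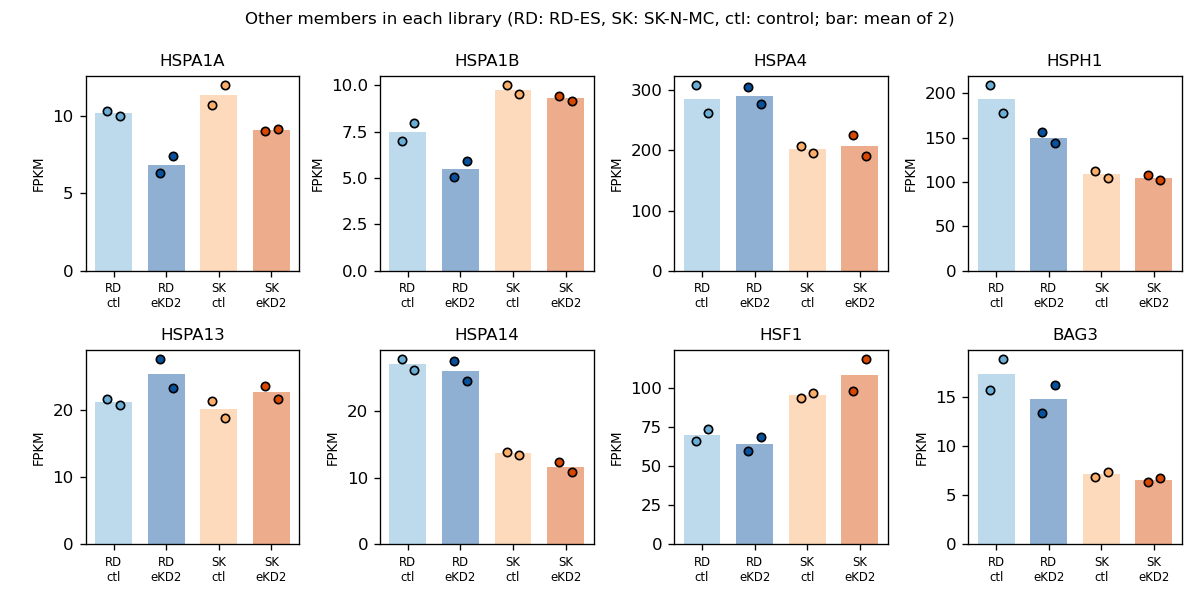
FPKM of the 8 members beside HSPA8 and HSPA9 in each library, with points for libraries and bars for the mean of 2 (RD, RD-ES; SK, SK-N-MC; ctl, control). HSPA1A, HSPA1B and HSPH1 lie lower in both RD-ES eKD2 libraries than in both controls, HSPA13 lies higher in eKD2 in both lines, and HSPA4 overlaps in both lines.

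Counted over the members, the opposite changes were seen without overlap in HSPA8 alone. In RD-ES, 4 of the 10 members were below both controls in both eKD2 libraries (HSPA8, HSPA1A, HSPA1B and HSPH1), against 15.1% of all genes tested, and 1 was above (HSPA13), against 24.2%. In SK-N-MC, 4 were above (HSPA8, HSPA9, HSPA13 and HSF1), against 22.2% of all genes tested, and 4 below (HSPA1A, HSPA1B, HSPA14 and BAG3), against 25.1%. Below in RD-ES and above in SK-N-MC was HSPA8, 1 of 10, against 3.55% of all genes. These counts include the contrast that selected HSPA8, and nothing is read from them.

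The median log2 fold change of the members was -0.17 for RD-ES and -0.0071 for SK-N-MC, beside 0.031 and -0.0049 over all genes tested. By sign alone, 7 members were lower and 3 higher in RD-ES eKD2, and 5 were lower and 5 higher in SK-N-MC eKD2. The signs of HSPA4 and HSPA9 in RD-ES turned negative when each library was scaled to the same median.

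**Figure D4:**
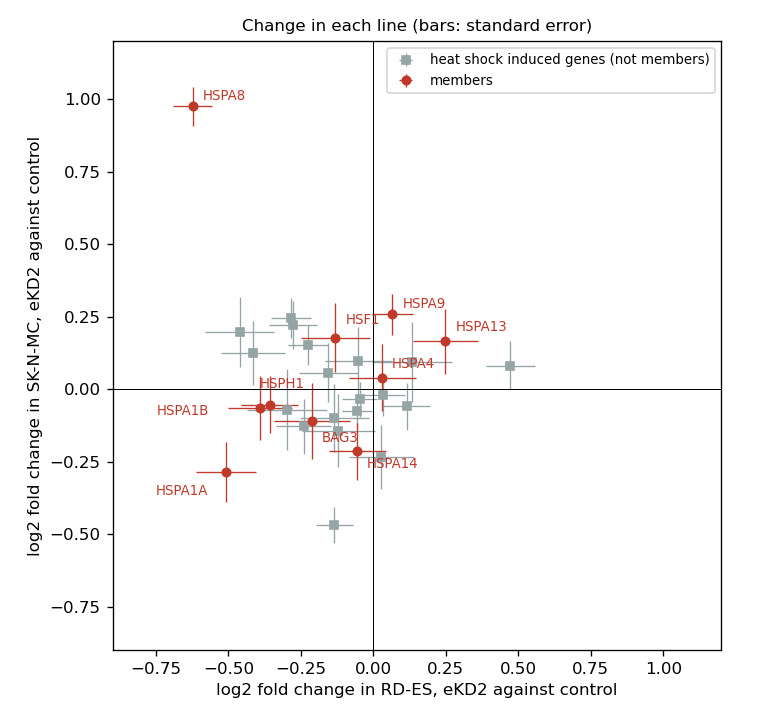
Log2 fold change of eKD2 against control in RD-ES (x axis) and SK-N-MC (y axis) on the log2(FPKM + 1) scale, for the members (red circles) and the heat shock induced genes that are no members (grey squares), with standard error bars. HSPA8 stands at -0.62 and 0.97, while the other 9 members span -0.51 to 0.25 on the x axis and -0.29 to 0.26 on the y axis.

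The control cells of the lines were compared for the 9 members other than HSPA8, a contrast that did not choose them but shares the control libraries. Of these, 7 passed the threshold, 3 higher in SK-N-MC (against 31.4% of all genes tested) and 4 lower (against 26.4%). BAG3 was 2.43 times as high in RD-ES as in SK-N-MC control (log2 difference, SK-N-MC minus RD-ES, of -1.17 with a standard error of 0.130 and a limma adjusted p of 6.2e-04). HSPA14 was 1.98 times as high in RD-ES (log2 difference -0.93, standard error 0.098, limma adjusted p = 4.8e-04) and HSPH1 1.78 times (log2 difference -0.82, standard error 0.098, limma adjusted p = 7.9e-04). HSPA4 was 1.42 times as high in RD-ES (log2 difference -0.50, standard error 0.115, limma adjusted p = 0.011). In the other direction, HSF1 was 1.36 times as high in SK-N-MC (log2 difference 0.44, standard error 0.119, limma adjusted p = 0.021), HSPA1B 1.30 times (log2 difference 0.35, standard error 0.109, limma adjusted p = 0.035) and HSPA9 1.26 times (log2 difference 0.33, standard error 0.071, limma adjusted p = 0.0085). HSPA1A and HSPA13 did not pass, with 95% intervals of the log2 difference from -0.11 to 0.40 and from -0.35 to 0.20. The HSPA8 difference was -2.09 (standard error 0.066), given without a test. Without RD-ES control replicate 1 the number past the threshold was 4, and without SK-N-MC control replicate 2 it was 3, which were HSPA14, HSPH1 and BAG3.

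**Figure D5:**
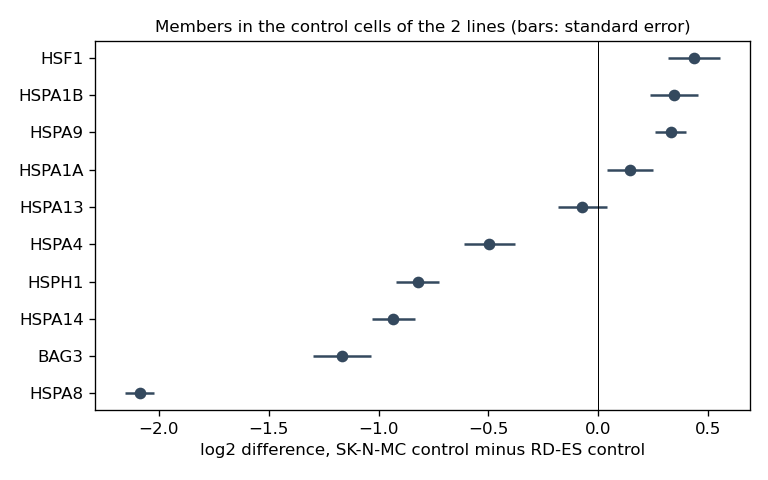
Log2 difference of SK-N-MC control from RD-ES control for each member, with standard error bars, ordered by value. HSPA8 (-2.09) and BAG3 (-1.17) lie lowest and HSF1 (0.44) highest, and HSPA13 (-0.072) is the member nearest to 0.

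In RD-ES, HSPA8, HSPA9, HSPA4, HSPH1 and HSF1 took the first places in this order in control and in eKD2, and HSPA1A and HSPA1B the last ones. HSPA14 and HSPA13 were next to each other at 25.98 ± 2.12 and 25.4 ± 3.11 FPKM in RD-ES eKD2 (SD, n = 2 each), which is within their spread. In SK-N-MC the first place was held by HSPA9 in control and by HSPA8 in eKD2, and the last place by BAG3, at 7.13 ± 0.360 FPKM in control and 6.54 ± 0.3001 in eKD2 (SD, n = 2 each). HSF1 and HSPH1 did not differ beyond their spread in SK-N-MC eKD2, at 109 ± 14.6 and 105 ± 4.07 FPKM (SD, n = 2 each), nor did HSPA1A and HSPA1B there, at 9.10 ± 0.0671 and 9.28 ± 0.214 FPKM.

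The heat shock induced genes that are no members were read from a list of 20, of which 19 passed the filter. None had an adjusted p under 0.05 in either line (limma), against 0.343% of all genes tested for RD-ES and 0.323% for SK-N-MC. At an unadjusted p under 0.05, 6 were lower (3.79% of all genes) and 1 higher (8.49%) in RD-ES eKD2. In SK-N-MC eKD2, 2 were higher (5.71% of all genes) and 1 lower (7.29%). The median log2 fold change was -0.13 for RD-ES and -0.020 for SK-N-MC, and by sign 14 were lower and 5 higher with eKD2 in the former line against 10 lower and 9 higher in the latter. Both eKD2 libraries were below both controls in RD-ES and above both in SK-N-MC for 5 of the 19 (DNAJB1, DNAJA1, HSPE1, SERPINH1 and DEDD2), named after their values were seen, against 3.55% of all genes. DNAJB1, a J-domain partner of HSP70 and a sensitive target of HSF1, was at 33.6 and 40.3 FPKM in the RD-ES controls against 28.6 and 26.2 after eKD2, and 31.9 and 33.8 FPKM in the SK-N-MC controls against 34.2 and 37.6 after eKD2. Its log2 fold change was -0.41 (limma adjusted p = 0.24) in RD-ES and 0.13 (limma adjusted p = 0.70) in SK-N-MC. DNAJA1, another J-domain partner of HSPA8, was at 258 and 234 FPKM in the RD-ES controls against 192 and 213 after eKD2, and 88.9 and 95.01 FPKM in the SK-N-MC controls against 108 and 107 after eKD2. SERPINH1, the collagen chaperone HSP47, differed by -0.28 on the log2 scale for RD-ES (limma adjusted p = 0.22) and by 0.25 for SK-N-MC (limma adjusted p = 0.24). For none of the 5 did the difference between the lines pass the threshold (limma adjusted p from 0.15 to 0.26).

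HSP90AA1, the inducible cytosolic HSP90, was at 457 ± 5.72 FPKM in SK-N-MC control and 329.9 ± 3.30 FPKM after eKD2 (SD, n = 2 each), which on the log2 scale is a difference of -0.47 that missed the threshold (limma adjusted p = 0.068). HSPB8, a small heat shock protein that works with BAG3, was at 0.394 and 0.371 FPKM in RD-ES control and 0.954 and 0.881 FPKM in RD-ES eKD2 (log2 fold change 0.47, limma adjusted p = 0.15), and it was between 35.6 and 39.1 FPKM in SK-N-MC. The log2 fold change of DEDD2 was -0.46 for RD-ES (limma adjusted p = 0.24) against 0.20 for SK-N-MC (limma adjusted p = 0.54). HSPA6, the HSP70 gene that is nearly silent without stress, was at most 0.382 FPKM in every library and was not tested. In control cells, 13 of the 19 heat shock induced genes were lower in SK-N-MC than in RD-ES at an adjusted p under 0.05 (limma), against 26.4% of all genes tested, and 1 was higher, against 31.4%.

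Among the other HSP70 superfamily genes, 5 of 8 passed the filter. Of these, 0 had an adjusted p under 0.05 in either line (limma), against 0.343% of all genes tested for RD-ES and 0.323% for SK-N-MC. At an unadjusted p under 0.05, 0 passed in SK-N-MC (5.71% of all genes higher and 7.29% lower) and 1 was lower in RD-ES (3.79%). That gene was HSPA2, the testis-enriched HSP70, at 2.93 and 2.49 FPKM in RD-ES control and 1.55 and 1.61 FPKM in RD-ES eKD2 (log2 fold change -0.52, limma adjusted p = 0.36), and at most 0.0621 FPKM in SK-N-MC. HSPA5, the HSP70 of the endoplasmic reticulum, was at 213 and 208 FPKM in the RD-ES controls against 202 and 190 after eKD2, and 80.1 and 77.3 FPKM in the SK-N-MC controls against 86.2 and 83.4 after eKD2. It lay on the same sides as HSPA8 with smaller differences on the log2 scale, -0.10 for RD-ES (limma adjusted p = 0.54) and 0.11 for SK-N-MC (limma adjusted p = 0.52).

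Of the other heat shock factors and regulators of HSF1, 5 of 6 passed the filter. In either line 0 had an adjusted p under 0.05 (limma), against 0.343% of all genes tested for RD-ES and 0.323% for SK-N-MC. At an unadjusted p under 0.05, 2 were higher (8.49% of all genes) and 1 lower (3.79%) in RD-ES. In SK-N-MC 1 was higher (5.71%). HSF4, a heat shock factor known from the lens, had log2 fold changes of 0.58 in both lines (limma adjusted p = 0.31 and 0.29). HSF2, a paralog of HSF1, was between 33.7 and 50.6 FPKM, with log2 fold changes of 0.17 and -0.0015 (limma adjusted p = 0.65 and 1).

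Of the other exchange factors and co-chaperones of HSP70, all 14 passed the filter. The number with an adjusted p under 0.05 (limma) was 0 in RD-ES (0.343% of all genes tested) and 1 in SK-N-MC (0.323%). TTC1, a tetratricopeptide repeat protein, was at 51.6 ± 2.65 FPKM in SK-N-MC control and 33.8 ± 0.0895 FPKM after eKD2 (SD, n = 2 each), and it fell by 0.60 on the log2 scale (standard error 0.068, limma adjusted p = 0.040). This call was lost when any 1 of the 8 libraries was left out. At an unadjusted p under 0.05, 1 gene was higher with eKD2 in RD-ES (8.49% of all genes). In SK-N-MC 1 was higher (5.71%) and 3 were lower (7.29%). The lower ones included GRPEL2, a mitochondrial exchange factor of HSPA9, at -0.58 (limma adjusted p = 0.14). Its log2 fold change in RD-ES was 0.30 (limma adjusted p = 0.34).

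The stress genes outside the heat shock response that passed the threshold did so in RD-ES, where they were on the side opposite to HSPA8. Of 12 genes of the endoplasmic reticulum and integrated stress responses, 5 rose in RD-ES eKD2, against 0.343% of all genes tested past the threshold there. They were CHAC1, ATF3, TRIB3, DDIT3 and ASNS (log2 fold changes from 1.25 to 3.56, limma adjusted p from 6.6e-04 to 0.0040). In SK-N-MC 0 passed (0.323% of all genes), while 2 were higher (5.71%) and 3 lower (7.29%) at an unadjusted p under 0.05. The higher ones were TRIB3 (log2 fold change 0.74) and ASNS (0.32), on the same side as HSPA8 in that line. The lower ones were CHAC1, ATF3 and DDIT3. The list was chosen with earlier results of these data known. The 5 genes encode targets and factors of the ATF4 pathway. None of the 5 passed when RD-ES was fitted alone. For 3 of the 12, CHAC1, ATF3 and DDIT3, the difference between the lines passed the adjusted threshold (limma), against 0.244% of all genes tested. HSPA8 was lower in the RD-ES eKD2 libraries in which these genes were higher, and HSPA5 was between 190 and 202 FPKM there.

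As a description, the 5 genes with the highest correlation to HSPA8, after centring each line, were GSTK1 (r = 0.985), B4GALT5 (r = 0.976), UQCRH (r = 0.974), DYNLL2 (r = 0.972) and IQGAP3 (r = 0.969), among 8776 genes whose mean was 10 FPKM or more. The correlation runs over 8 libraries, which form 4 groups and were the ones in which HSPA8 was chosen. The changes of these genes were smaller than those of HSPA8, with log2 fold changes of -0.26 to -0.089 for RD-ES and 0.20 to 0.46 for SK-N-MC. None of the members or listed heat shock genes was among these 5. Their own correlations to HSPA8 are not given, so this does not say how closely they followed it.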

How the data were processed

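RNA of 8 libraries (RD-ES and SK-N-MC, control and eKD2, n = 2 each) was used. Per the labels, reads were checked with FastQC and aligned with STAR to hg19 (GRCh37), and the authors computed the deposited FPKM values per gene and library with cuffnorm and tested read counts with DESeq2. The deposited file holds FPKM and no counts, so the count test of the study was not run, and depth is known only roughly.

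FPKM were analysed as log2(FPKM + 1), for which a fold change understates that of low genes. Genes were kept where the mean FPKM was 1 or more (15175 genes) and tested with limma 3.58.1 (R 4.3.3; lmFit, eBayes with trend) over 4 groups in 1 fit, with Benjamini-Hochberg adjustment over all genes and a threshold of 0.05. Where a symbol has several rows, the highest mean was used. The groups have 2 libraries, and an exact permutation test of 2 against 2 has a smallest two-sided p of 0.333. The study calls the duplicates biological, the labels do not say whether they were separate cultures, and p-values measure the spread between these libraries.

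The members and gene lists were chosen with earlier results of these data known. Members were given no p in the eKD2 contrasts, and HSPA8 also none between the control lines. Named beside the members were listed genes past the adjusted threshold, at most the 3 largest changes per list at an unadjusted p under 0.05, and the 5 genes most correlated with HSPA8. Genes whose libraries lay on opposite sides in the lines were added after their values were seen. HSF2 and HSPA6 were named outside these rules. Replicate numbers did not pair the libraries (correlation of deviations 0.056 for RD-ES, 0.027 for SK-N-MC). Promoter sequences are from RefSeq (GRCh38.p14) and were read for 8 of the 10 members. No entry was matched for HSPA14. HSF1 was left out because entries on chr8 were not read, so its motifs are unknown here. The alternatives were a pseudocount of 0.1, no filter, median scaling, quantile normalization, each comparison fitted alone, eBayes without trend, a replicate block, summed rows and leaving out each library. The result of 1 marker of other cell types is not reported here.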

Additional observations from a re-analysis of the deposited data

Results flagged for a closer look

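HSPA8 was flagged because its libraries moved in opposite directions in the lines, with a log2 difference (change in SK-N-MC minus change in RD-ES) of 1.60; the difference was not tested, since it chose the gene. No other member was flagged.

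The same pattern, every eKD2 library on one side of its controls in RD-ES and on the other side in SK-N-MC, was seen in 14 genes of the lists. The listed genes tested were 52 heat shock, chaperone, stress and small nucleolar RNA genes, 8 EwS markers and 2 markers of other cell types. CD99 is the EwS marker among the 14. Over all 15175 genes tested, 538 (3.55%) were lower in RD-ES and higher in SK-N-MC, and 1015 of the 15175 went the other way. Among the listed genes lower in RD-ES and higher in SK-N-MC, the log2 difference was 0.79 for HSF2BP, 0.66 for DEDD2 and 0.54 for DNAJB1. It was 0.53 for SERPINH1, 0.50 for DNAJA1, 0.41 for HSPBP1, 0.38 for HSPE1, 0.33 for CD99 and 0.21 for HSPA5. In the other direction it was -0.88 for GRPEL2 and -0.17 for HSPA4L, beside CHAC1, ATF3 and DDIT3. For the genes other than these last 3 the limma test of the difference did not pass the adjusted threshold of 0.05.

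The difference between the lines passed the limma test for CHAC1 (-4.48, limma adjusted p = 0.0012), ATF3 (-3.01, limma adjusted p = 0.0017) and DDIT3 (-1.68, limma adjusted p = 0.0048), which were higher in RD-ES eKD2 than in control, whereas in SK-N-MC their log2 fold changes were -0.92, -0.68 and -0.37, none past the adjusted threshold. Outliers within a group could not be sought with 2 libraries per group.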

How the results depend on the processing

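Each result was recomputed under 8 other settings and without each of the 8 libraries, except that the difference between the lines has no value when each comparison is fitted alone. None of the 320 alternative log2 fold changes of members reversed where the groups did not overlap, and HSPA8 ranged from -0.69 to -0.58 for RD-ES and from 0.86 to 1.05 for SK-N-MC. The signs of HSPA4 in both lines, and of HSPA9 and HSPA14 in RD-ES, depended on the setting. The median log2 fold change of the members was -0.24 in RD-ES after median scaling and between -0.26 and -0.092 without 1 library, in SK-N-MC between -0.076 and 0.039 without 1 library, and for the difference 0.285 after median scaling and between 0.17 and 0.24 without 1 library. Of the members other than HSPA8, 3 to 7 passed between the control lines without 1 library, and HSPA14, HSPH1 and BAG3 passed under every setting. HSPA1B missed the threshold without a filter, after median scaling or quantile normalization and with only the control libraries fitted. The 5 listed genes past the threshold in RD-ES became 0 with RD-ES fitted alone and 2 with the replicate block (CHAC1 and DDIT3), and were 5 without any 1 library. The 1 listed gene in SK-N-MC became 0 under median scaling, quantile normalization, SK-N-MC fitted alone, eBayes without trend and the replicate block, and 0 to 1 without 1 library, where the 1 was SNORD14E, not TTC1. Fitted alone, a comparison has fewer libraries; the other causes were not tested. Libraries with the same number share only that number, and with the block HSPA9 no longer passed between the control lines, while the other calls of members there held. Depth, known only roughly, limits the genes at low FPKM, such as HSPA2 and HSPA6.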
